A study of Mus musculus with 20 samples.

Results

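The receptors for prolactin, oxytocin and prostaglandin F2 alpha are described here by the transcripts of Prlr, Oxtr and Ptgfr in granulosa cells (GCs), the cells that surround the oocyte and form the inner layer of the ovarian follicle. The genes were chosen by name, with earlier results of these data known, and they are 3 of the 55487 Ensembl genes counted in the study. Prlr (ENSMUSG00000005268) lies on the plus strand at chr15:10177238-10349180 of the mouse genome GRCm38, Oxtr (ENSMUSG00000049112) on the minus strand at chr6:112473683-112489943, and Ptgfr (ENSMUSG00000028036) on the minus strand at chr3:151796502-151837630. All 3 are protein-coding genes.

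GCs came from 20 female mice aged 77 ± 5 days, 5 in each of 4 groups: ctrl mice in estrus, FL1 mice in estrus, ctrl mice in diestrus and FL1 mice in diestrus. FL1 is a Dummerstorf line bred over many generations for large litters, and ctrl is the line kept without selection. Both lines go back to 1 founder population made from 4 inbred and 4 outbred lines, and no transgene or treatment is named for either. The stage of the cycle was read from vaginal cells, and the GCs of each mouse were pooled from 7 to 10 of its largest follicles, so a sample holds follicles that can differ in state. Since FL1 is 1 selected line and ctrl 1 unselected line, the effect of selection and chance differences between the lines cannot be told apart.

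The prolactin receptor is a cytokine receptor without a kinase of its own, which signals through the attached kinase JAK2 and the STAT5 factors. In rodents prolactin maintains the corpus luteum, the gland that forms from the follicle wall after ovulation. The oxytocin receptor and the prostaglandin F receptor both couple to Gq proteins, which release calcium from inner stores through phospholipase C. Oxytocin is best known for contraction of the uterus and milk ejection, and prostaglandin F2 alpha for the regression of the corpus luteum.

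Counts are reads from the 3′ end of polyadenylated transcripts on each gene, and between 5446576 and 8257041 reads per mouse fell on genes. Levels are given as CPM, the read count scaled to the library size of the mouse after TMM normalization. Counts are summed over the transcripts of a gene (12 annotated for Prlr, 2 for Oxtr and 3 for Ptgfr), so the long and short forms of the prolactin receptor were not separated. Reads on bases that Prlr shares with the overlapping gene Gm21973 are left out as ambiguous. Prlr transcripts that end there can therefore be counted in part or not at all. The 8 markers of mural GCs, among them Fshr, Cyp19a1 and Inha, had counts in every group, with a summed level from 5029 to 13671 CPM. Oocyte markers summed to between 50.6 and 502 CPM and the cumulus markers Has2, Ptx3 and Tnfaip6 to at most 10.4 CPM. In such bulk samples fewer cells of a type and less RNA per cell cannot be told apart.

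The stretches before the annotated starts of the genes are shown because the data are transcript levels of genes that start from different promoters. They are from RefSeq on GRCm38.p6, run 5′ to 3′ on the strand of the gene, and stop where an exon of the GENCODE M21 annotation begins. Positions count back from the RefSeq start, with -1 as the last base before it. Capitals mark matches on either strand to 6 motifs: TTCNNNGAA (STAT), AAGGTCA (core of NR5A sites), TGACG (core of CRE sites), GGGCGG (SP1), AGATAA (bound by GATA factors) and CANNTG (E-box). Prlr has 3 starts in RefSeq, of which the first and the second are shown, at chr15:10176988-10177237 and chr15:10223656-10223905. Oxtr is shown at chr6:112489944-112490075 and Ptgfr at chr3:151837631-151837778.
Prlr start 1: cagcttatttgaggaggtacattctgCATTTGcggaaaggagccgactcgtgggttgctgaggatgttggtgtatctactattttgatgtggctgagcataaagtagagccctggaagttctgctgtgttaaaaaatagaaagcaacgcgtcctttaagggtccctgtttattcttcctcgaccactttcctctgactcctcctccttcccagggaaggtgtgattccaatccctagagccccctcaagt
Prlr start 2: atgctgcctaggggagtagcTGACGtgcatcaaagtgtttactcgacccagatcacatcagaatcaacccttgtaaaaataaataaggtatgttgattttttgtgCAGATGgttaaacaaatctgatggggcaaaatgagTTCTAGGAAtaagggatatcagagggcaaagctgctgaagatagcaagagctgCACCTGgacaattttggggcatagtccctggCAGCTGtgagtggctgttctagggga
Oxtr: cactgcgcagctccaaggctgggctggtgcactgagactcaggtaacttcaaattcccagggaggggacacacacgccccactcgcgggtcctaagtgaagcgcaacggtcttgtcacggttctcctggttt
Ptgfr: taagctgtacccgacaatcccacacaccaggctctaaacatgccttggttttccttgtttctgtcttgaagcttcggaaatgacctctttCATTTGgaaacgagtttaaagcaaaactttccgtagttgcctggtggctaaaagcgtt
The STAT motif was matched before the second start of Prlr, from position -110 to -102, by TTCTAGGAA. A window of 250 bases before the start holds this motif in 7.02% of 32851 RefSeq promoters. The same Prlr window held a CRE core, found in 17.8% of all windows, and 3 E-boxes, found as at least 1 match in 66.2%. The window of the third Prlr start held none of the 6 motifs. In Oxtr and Ptgfr the rest of the window lies in annotated first exons and is not shown whole. There Oxtr had an SP1 motif directly followed by an E-box (CCGCCCCACGTG, chr6:112489863-112489874, positions -49 to -38) and a further E-box from -71 to -66, and Ptgfr had an SP1 motif from -30 to -25. An SP1 motif was found in 32.7% of all windows, while the NR5A core (4.08%) and the GATA motif (9.99%) were matched in no window of the 3 genes. A match is no evidence that a factor binds there, and which start was used cannot be read from 3′ end counts.

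In estrus the prolactin and oxytocin receptor transcripts were higher in GCs of FL1 mice than in those of ctrl mice. Prlr was 4.46-fold and Oxtr 9.35-fold higher, and in both genes each of the 5 FL1 mice lay above each of the 5 ctrl mice. Ptgfr was 3.78-fold higher without overlap of the lines but did not pass the adjusted threshold of 0.05. The lines were compared with edgeR's quasi-likelihood test, and p-values were adjusted by the Benjamini-Hochberg method over the 13007 genes that passed the filter on low counts, the 3 receptors among them. Of these 100 genes (0.769%) passed, 54 higher and 46 lower in FL1, against 2 of the 3 receptors. Of the genes tested, 1.85% were higher in FL1 without overlap, against 3 of the 3 receptors. As the 3 receptors were chosen with earlier results of these data known, these counts describe them and are no test of the set.

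Prlr levels in ctrl mice in estrus were 95.1, 96.98, 148, 179 and 233 CPM in replicates 1 to 5. In FL1 mice in estrus they were 390, 1639, 288, 528 and 511 CPM. The lowest FL1 mouse was thus above the highest ctrl mouse, and FL1 replicate 2 stood far above the other 4 FL1 mice. The group means were 150 ± 58.2 CPM (SD, n = 5) in ctrl and 671 ± 550 CPM (SD, n = 5) in FL1. The log2 fold change was 2.16 with a standard error of 0.40 (95% interval from 1.32 to 2.99, adjusted p = 0.0118 from edgeR). Without FL1 replicate 2 the log2 fold change was 1.51 (adjusted p = 0.0102 from edgeR) and the FL1 mean 429 ± 112.7 CPM (SD, n = 4).

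Oxtr had fewer reads, with 23 to 268 reads per ctrl mouse and 273 to 2479 reads per FL1 mouse in estrus. The levels were 4.53, 12.6, 30.8, 10.5 and 3.99 CPM in ctrl mice and 121, 310.4, 50.02, 38.4 and 69.6 CPM in FL1 mice, in the order of replicates 1 to 5. Again no FL1 mouse overlapped with the ctrl mice, and FL1 replicate 2 was the highest. Relative to the level, counting error was widest in ctrl replicate 5, where 23 reads give an exact Poisson interval (95%) of 2.53 to 5.99 CPM, and such intervals cover counting error only. The means were 12.5 ± 10.9 CPM (SD, n = 5) in ctrl and 118 ± 112.2 CPM (SD, n = 5) in FL1. The log2 fold change was 3.23 with a standard error of 0.59 (95% interval from 1.98 to 4.47, adjusted p = 0.0118 from edgeR). Without FL1 replicate 2 it was 2.47 (adjusted p = 0.0320 from edgeR).

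Ptgfr levels in estrus were 19.0, 1.87, 32.1, 49.5 and 62.5 CPM in ctrl mice and 96.9, 110.95, 187, 114.95 and 113.8 CPM in FL1 mice. The FL1 mice were close to each other apart from replicate 3, while the ctrl mice spread 33.5-fold, from the 12 reads of replicate 2 to the 360 reads of replicate 5. The means were 33.0 ± 24.0 CPM (SD, n = 5) in ctrl and 125 ± 35.4 CPM (SD, n = 5) in FL1. The log2 fold change was 1.92 with a standard error of 0.51 (95% interval from 0.85 to 2.99, adjusted p = 0.0946 from edgeR). Without ctrl replicate 2, the mouse with the lowest level, the log2 fold change was smaller, 1.61, and passed the threshold (adjusted p = 0.0289 from edgeR). With all mice Ptgfr also passed when the filter on low counts was dropped (1.93, adjusted p = 3.3e-06 from edgeR). With robust estimation the fold changes of Prlr and Oxtr were as before, but neither passed (adjusted p = 0.0767 and 0.118 from edgeR).

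**Figure D1:**
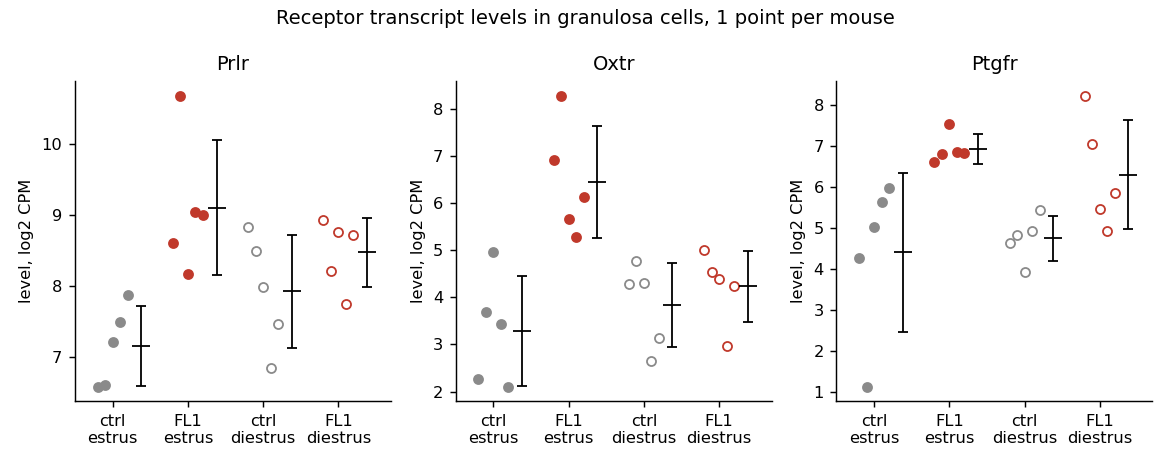
Levels of Prlr, Oxtr and Ptgfr as log2 CPM (y axis) in each of the 20 mice, with ctrl in grey, FL1 in red, estrus filled and diestrus open, and with the mean and SD of the 5 log2 values beside each group. In estrus all FL1 points lie above all ctrl points in each panel, FL1 replicate 2 is the highest point for Prlr (10.68) and Oxtr (8.28), and ctrl replicate 2 is the lowest for Ptgfr (1.11).

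Some genes of luteal cells, the cells of the corpus luteum, were also higher in FL1 mice in estrus. Of 8 luteal cell genes, which GCs of large follicles also express, 3 were called higher in FL1 mice and none lower (0.769% of all genes were called), 7 log2 fold changes were above 0 and 1 below, and the median log2 fold change was 1.63 against 0.01 for all genes tested. These 8 genes were listed with earlier results of these data known, so the counts and medians in either stage describe them and are no test. Their summed level was 10685 to 14261 CPM in FL1 mice and 3145 to 6892 CPM in ctrl mice, with all 8 genes detected in every group. The genes called were Akr1c18, which inactivates progesterone (log2 fold change 4.02, adjusted p = 3.1e-04 from edgeR), the LH receptor Lhcgr (3.02, adjusted p = 0.0327) and Star, which moves cholesterol into mitochondria for steroid synthesis (2.10, adjusted p = 0.0106). FL1 replicate 2, highest for Prlr and Oxtr, was also highest for Lhcgr, with 415 CPM against 44.2 to 97.4 CPM in the other FL1 mice. It was in the middle of the FL1 mice for Star (649 CPM, range 352 to 1011 CPM) and the lowest of them for Akr1c18 (626 CPM, with the highest at 3589 CPM). Its summed level of luteal cell genes was the highest of the FL1 mice in estrus, with 14261 CPM against at most 13568 CPM. Its summed mural GC markers were the lowest of all 20 mice, with 5029 CPM against 7725 to 9131 CPM in the other FL1 mice in estrus. The part of luteal genes in the receptor differences was not tested.

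Markers of other cells were present and partly unequal between the lines in estrus. Smooth muscle markers, from a cell type that carries both Gq-coupled receptors, summed to 494 to 1205 CPM in FL1 and 231 to 853 CPM in ctrl mice. Stroma markers summed to 488 to 1084 CPM and 374 to 787 CPM, and erythrocyte markers to 324 to 1114 CPM and 291 to 677 CPM, in FL1 and ctrl mice. The lines overlapped in each of these sums. Leukocyte markers summed to 29.8 to 80.3 CPM in FL1 and 10.3 to 34.5 CPM in ctrl mice, and surface epithelium markers to 22.4 to 60.2 CPM and 3.21 to 31.2 CPM. Endothelial markers summed to 18.8 to 70.1 CPM in FL1 and 18.7 to 42.7 CPM in ctrl mice. Of the theca markers Insl3 had 0 counts in estrus, while Cyp17a1 and Ptch1 were counted in every mouse, with a summed level of 61.6 to 84.9 CPM in FL1 and 68.4 to 125 CPM in ctrl mice. In estrus the median log2 fold changes were 1.59 for leukocyte (3 tested), 1.56 for surface epithelium (5) and 0.67 for endothelial markers (3). They were 0.62 for erythrocyte (4 tested), 0.47 for stroma (4), 0.20 for smooth muscle (4) and -0.27 for theca markers (2). No marker of these 7 cell types was called between the lines in either stage, but only 0.769% and 0.248% of all genes were. The part of these cell types in the receptor differences was not tested.

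In diestrus none of the receptors passed the threshold between the lines. Of 12886 genes tested, 32 (0.248%) did, 12 higher and 20 lower in FL1. Prlr levels were 456, 359, 252, 114.2 and 176 CPM in ctrl mice and 486, 296, 432, 213 and 421 CPM in FL1 mice. The lines overlapped over most of this range. The means were 271 ± 138 CPM in ctrl and 370 ± 111.6 CPM in FL1 mice (SD, n = 5 each). On the log2 scale FL1 differed by 0.45 with a standard error of 0.32 (95% interval from -0.24 to 1.14, adjusted p = 1.00 from edgeR). Oxtr levels were 19.1, 27.1, 19.5, 6.01 and 8.45 CPM in ctrl mice and 31.9, 23.1, 20.6, 7.52 and 18.6 CPM in FL1 mice. These also overlapped, with means of 16.0 ± 8.70 CPM in ctrl and 20.4 ± 8.78 CPM in FL1 mice (SD, n = 5 each) and a difference of 0.35 on the log2 scale (95% interval from -0.63 to 1.33, adjusted p = 1.00 from edgeR).

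For Ptgfr in diestrus the difference between the lines was of similar size as in estrus, but the spread in FL1 was wide. Ctrl mice had 24.3, 28.2, 14.8, 30.1 and 43.3 CPM, and FL1 mice had 301, 132, 43.7, 30.1 and 57.3 CPM. FL1 replicates 1 and 2 stood well above all ctrl mice, replicate 5 was above the highest of them, replicate 3 just above it, and replicate 4 lay among them. The means were 28.1 ± 10.3 CPM in ctrl and 112.85 ± 112.3 CPM in FL1 (SD, n = 5 each). The log2 fold change was 2.01 with a standard error of 0.51 (95% interval from 0.92 to 3.10, unadjusted p = 0.0012, adjusted p = 0.203 from edgeR's test across all genes). Without FL1 replicate 1 it was 1.23 (adjusted p = 0.478 from edgeR). DESeq2 and edgeR without the filter on low counts called Ptgfr (adjusted p = 0.0174 and 2.5e-04).

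FL1 replicate 1, which had the highest Ptgfr level in diestrus, was also the highest of the FL1 mice in diestrus for the summed markers of 7 other cell types. It had 1206 CPM of smooth muscle markers against 67.3 to 452 CPM in the other 4, 1625 CPM of erythrocyte markers against at most 1105.5 CPM, 838 CPM of stroma markers against at most 713 CPM and 83.5 CPM of endothelial markers against at most 52.1 CPM. It also had the most leukocyte (62.4 CPM), surface epithelium (31.7 CPM) and theca markers (174 CPM). In ctrl mice in diestrus smooth muscle markers summed to 193 to 564 CPM, erythrocyte markers to 47.8 to 351 CPM, stroma markers to 93.2 to 479 CPM and leukocyte markers to 3.28 to 10.1 CPM. Endothelial markers summed to 9.84 to 28.9 CPM in these ctrl mice. Of the erythrocyte, stroma and endothelial markers, 4 of 4 tested in each list were above 0 between the lines, with median log2 fold changes of 1.61, 0.98 and 1.11. Leukocyte (2 of 2 above 0, median 2.83) and smooth muscle markers (3 of 4, 0.28) were also higher in the median. Theca (2 of 2 below 0, -0.59) and surface epithelium markers (1 of 1 below 0, -0.89) were lower. None of these markers was called, and the part of the 7 cell types in the Ptgfr difference was not tested.

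Luteal cell genes were again on the higher side in FL1 mice in diestrus, with 8 of 8 log2 fold changes above 0 and a median of 1.47 against 0.01 for all genes tested, but only Star passed (2.25, adjusted p = 0.00899 from edgeR). The share called over all genes was 0.248%. The summed level of the luteal cell genes was 4867 to 11019 CPM in FL1 and 2634 to 6933 CPM in ctrl mice.

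Between the stages of ctrl mice no receptor passed the threshold, while 175 of 12850 genes tested (1.36%) did. Leaving out 1 mouse gave 77 genes (without replicate 5 in diestrus) to 176 genes (without replicate 1 in diestrus). From estrus to diestrus the log2 fold change of Prlr was 0.85 (95% interval from 0.14 to 1.56, adjusted p = 0.303 from edgeR), that of Oxtr 0.36 (-0.88 to 1.59, adjusted p = 0.896) and that of Ptgfr -0.24 (-1.42 to 0.94, adjusted p = 0.938). In the 10 fits without 1 mouse that of Prlr was 0.58 to 1.06 and that of Oxtr 0.088 to 1.01, and none passed. In the same comparison 1 of 8 mural GC markers was called. This was the FSH receptor Fshr, which was higher in diestrus (1.71, adjusted p = 0.0015 from edgeR), while 5 of the 8 were above 0 and 3 below. Of 2 theca markers tested 1 was called, Cyp17a1, an enzyme of androgen synthesis, also higher in diestrus (3.17, adjusted p = 0.0069 from edgeR). The other theca marker was below 0. Among 8 luteal cell genes 1 was called, Scarb1, which was lower in diestrus. It had 283 to 580 CPM there and 672 to 794 CPM in estrus, and 4 of the 8 genes were above 0 and 4 below.

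In FL1 mice Oxtr was lower in diestrus than in estrus. It was 1 of 29 genes called (0.221% of 13114 tested, 10 higher and 19 lower; 178 genes were called without replicate 1 in diestrus and 13 to 18 without any 1 of the other 4), and all 5 mice in diestrus, with at most 31.9 CPM, lay below all 5 in estrus, with at least 38.4 CPM. A lower level without overlap was found in 1.32% of the genes tested. The log2 fold change was -2.53 with a standard error of 0.50 (95% interval from -3.59 to -1.48, adjusted p = 0.0473 from edgeR). The call was close to the threshold and was lost when FL1 replicate 1 or 2 in estrus or replicate 2, 3, 4 or 5 in diestrus was left out, with log2 fold changes from -2.76 to -1.79 and adjusted p-values from 0.0158 to 0.140 over all 10 such edgeR fits. Without replicate 2 in estrus, the highest mouse, it was -1.79 (adjusted p = 0.101 from edgeR), and robust estimation gave an adjusted p of 0.129. Prlr had a log2 fold change of -0.86 (95% interval from -1.66 to -0.06, adjusted p = 0.482 from edgeR), which was -0.23 without replicate 2 in estrus. Ptgfr had one of -0.15 (-1.13 to 0.83, adjusted p = 0.971).

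Other genes lay on the same side as Oxtr between the stages of FL1 mice without being called. Surface epithelium markers summed to 22.4 to 60.2 CPM in estrus and 1.71 to 31.7 CPM in diestrus, with 4 of 4 tested below 0 and a median log2 fold change of -2.08, against 0.01 for all genes. Stroma markers (4 of 4 below 0, median -0.54) and luteal cell genes (6 of 8 below 0, median -0.62) were also lower in the median. So were smooth muscle markers (3 of 4, -0.59), endothelial markers (3 of 4, -0.29) and related receptors (4 of 7, -0.64). Higher in the median were mural GC (7 of 8 above 0, 0.27), oocyte (6 of 7, 0.19) and theca markers (2 of 2, 1.19). Erythrocyte (3 of 4, 0.25) and leukocyte markers (3 of 5, 0.23) were higher too. The part of any of these genes in the Oxtr difference was not tested.

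**Figure D2:**
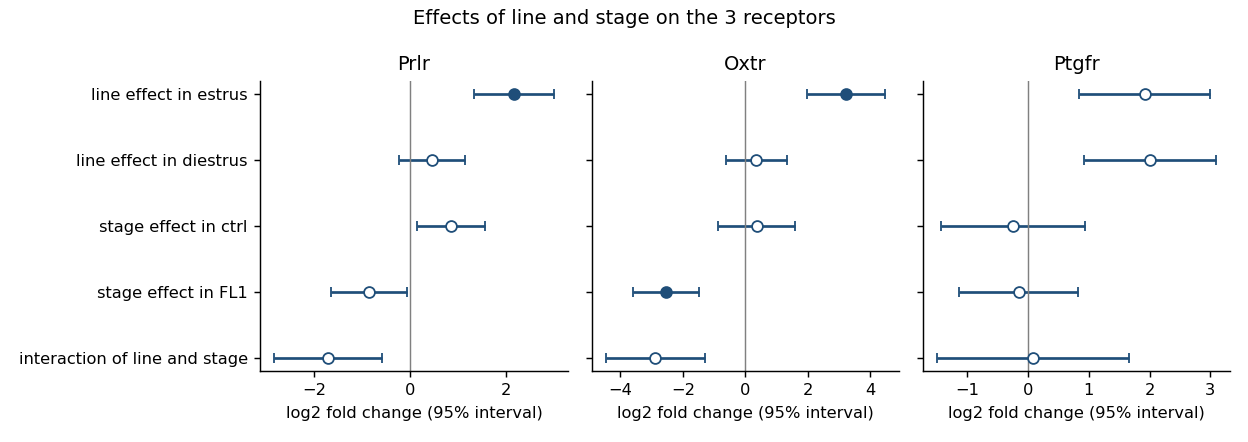
Log2 fold changes (x axis) of the 3 receptors in each comparison, with 95% intervals from the edgeR fit and filled points where the adjusted p was at most 0.05. Line effects are FL1 over ctrl, stage effects diestrus over estrus, and the interaction is the line effect in diestrus minus that in estrus; filled are the line effects in estrus of Prlr (2.16) and Oxtr (3.23) and the stage effect of Oxtr in FL1 (-2.53).

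Whether the line effect differed between the stages was tested with an interaction term over all 20 mice. None of 14938 genes (0%) passed after adjustment by edgeR, and 710 (4.75%) had an unadjusted p below 0.05, among them Prlr and Oxtr. DESeq2, fitted without the filter on low counts used for edgeR, called 1 of 26886 genes. The line effect in diestrus minus that in estrus was -1.71 for Prlr on the log2 scale (standard error 0.55, unadjusted p = 0.0042, adjusted p = 0.933 from edgeR across all genes). For Oxtr it was -2.89 (standard error 0.77, unadjusted p = 8.9e-04, adjusted p = 0.933 from edgeR across all genes), and for Ptgfr 0.08 (95% interval from -1.49 to 1.66, adjusted p = 1.00). A stage difference in the line effect was therefore not shown for any receptor. In the 20 fits without 1 mouse the values were -1.92 to -1.07 for Prlr and -3.55 to -2.13 for Oxtr, and none passed. Both were smallest in size without FL1 replicate 2 in estrus. Without the filter on low counts Oxtr passed (adjusted p = 0.0325 from edgeR).

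By group means Prlr was highest in FL1 mice in estrus, followed by FL1 mice in diestrus, ctrl mice in diestrus and ctrl mice in estrus, and no neighbours in this order passed the threshold. Oxtr had the same order, in which only FL1 mice in estrus differed from the next group. Ptgfr was highest in FL1 mice in estrus, followed by FL1 mice in diestrus, ctrl mice in estrus and ctrl mice in diestrus. The stages did not pass the threshold in either line for Ptgfr, and FL1 mice in diestrus were not compared with ctrl mice in estrus.

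Fits without 1 mouse at a time show how far each difference rested on single mice. The line effect in estrus passed in all 10 such fits for Prlr (log2 fold change from 1.51 to 2.38) and for Oxtr (2.47 to 3.89), and in 1 of 10 for Ptgfr (1.61 to 2.29). In diestrus it passed in none of the 10 fits for Ptgfr (1.23 to 2.25).

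**Figure D3:**
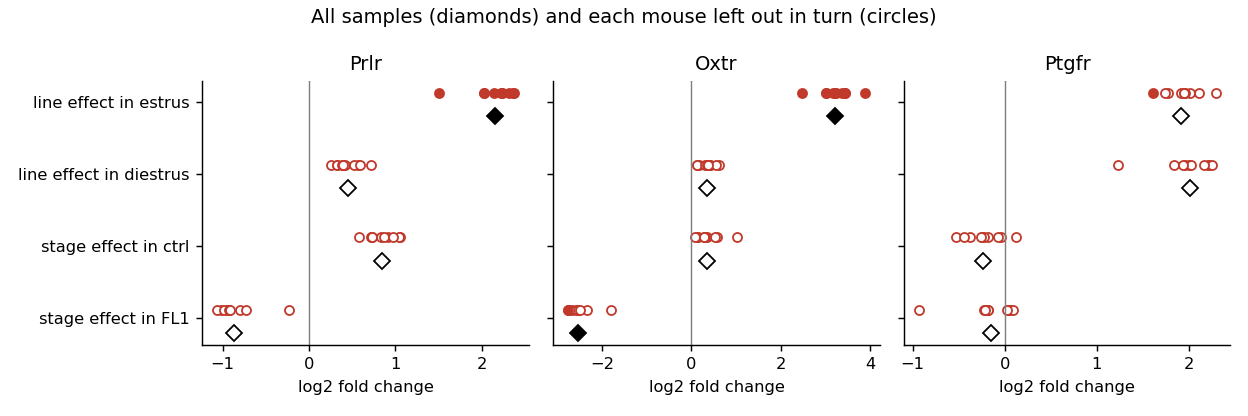
Log2 fold changes (x axis) of the 3 receptors for the line and stage effects with all mice (black diamonds) and with each mouse left out in turn (10 red circles a row), filled where the adjusted p was at most 0.05. The circles of Prlr and Oxtr for the line effect in estrus are all filled, while those of Oxtr for the stage effect in FL1 are filled in 4 of 10.

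The ligands themselves were scarcely counted in GCs. Prl had 0 counts in all 20 mice, which allows at most 0.0225 CPM for 3 counts over all reads on genes, and Oxt had 56 counts in all, from 2 mice. Of 18 genes of the ligands and their supply, 14 were tested between the lines in estrus, of which 1 was called higher and 1 lower in FL1 (0.769% of all genes were called). The higher one was Akr1c18, which is also listed among the luteal cell genes and whose family includes prostaglandin F synthases. The lower one was Hpgd, the enzyme that starts the breakdown of prostaglandins (-1.996 on the log2 scale, with an edgeR adjusted p = 0.0424). Hpgd levels were 70.3, 73.2, 126, 135 and 146 CPM in ctrl mice and 24.2, 7.39, 24.4, 69.4 and 12.6 CPM in FL1 mice in estrus. The lines did not overlap, though the highest FL1 mouse came close to the lowest ctrl mouse. In diestrus none of the 14 genes tested passed (0.248% of all genes did), with Hpgd at -1.57 (adjusted p = 0.0950 from edgeR).

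Of the genes downstream of the receptors none was called between the lines, against 0.769% of all genes tested in estrus and 0.248% of those in diestrus. Of 19 genes of prolactin receptor signalling, among them Jak2, Stat5a, Stat5b and the feedback inhibitors Socs2 and Cish, 18 were tested in estrus and 19 in diestrus, and none was called between lines or stages. Their median log2 fold change between the lines was -0.07 in estrus and 0.02 in diestrus, against 0.01 for all genes in both. Socs3, another feedback inhibitor, had -1.39 in estrus (adjusted p = 0.180 from edgeR). Of 29 genes of Gq and calcium signalling, 27 were tested between the lines in each stage and none was called, with medians of 0.03 in estrus and -0.09 in diestrus. Between the stages of ctrl mice, where 1.36% of all genes were called, 2 of 26 were higher in diestrus, namely Itpr1, a calcium channel of inner stores (0.95, adjusted p = 0.0253 from edgeR), and Prkce, a protein kinase C (1.501, adjusted p = 0.0069). No gene of either list was called between the stages of FL1 mice or in the interaction.

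Of 17 related receptors, 6 were tested between the lines in estrus and 5 in diestrus, and none was called (0.769% and 0.248% of all genes were). The growth hormone receptor Ghr, of the same family as Prlr, had log2 fold changes of 0.43 in estrus and -0.26 in diestrus between the lines (adjusted p = 0.892 and 1.00 from edgeR). Ghr was higher in diestrus than in estrus in ctrl mice, with means of 43.0 ± 23.9 CPM against 9.80 ± 5.53 CPM (SD, n = 5 each), though the stages overlapped (2.12, adjusted p = 0.0461 from edgeR). In FL1 mice it had 35.5 ± 16.1 CPM against 13.2 ± 9.31 CPM (SD, n = 5 each; 1.41, adjusted p = 0.278). The vasopressin receptors Avpr1a, Avpr1b and Avpr2, the relatives of Oxtr, had 0 counts in all 20 mice, so they were not detectable above 0.0225 CPM. The prostaglandin E receptor Ptger2 had 0.50 and 0.10 between the lines in estrus and diestrus (adjusted p = 0.804 and 1.00). Ptgfrn, a membrane protein that binds the prostaglandin F receptor, had 0.96 and 0.51 (adjusted p = 0.256 and 0.879), with 75.3 ± 39.5 CPM in FL1 and 38.5 ± 18.3 CPM in ctrl mice in estrus (SD, n = 5 each).

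**Figure D4:**
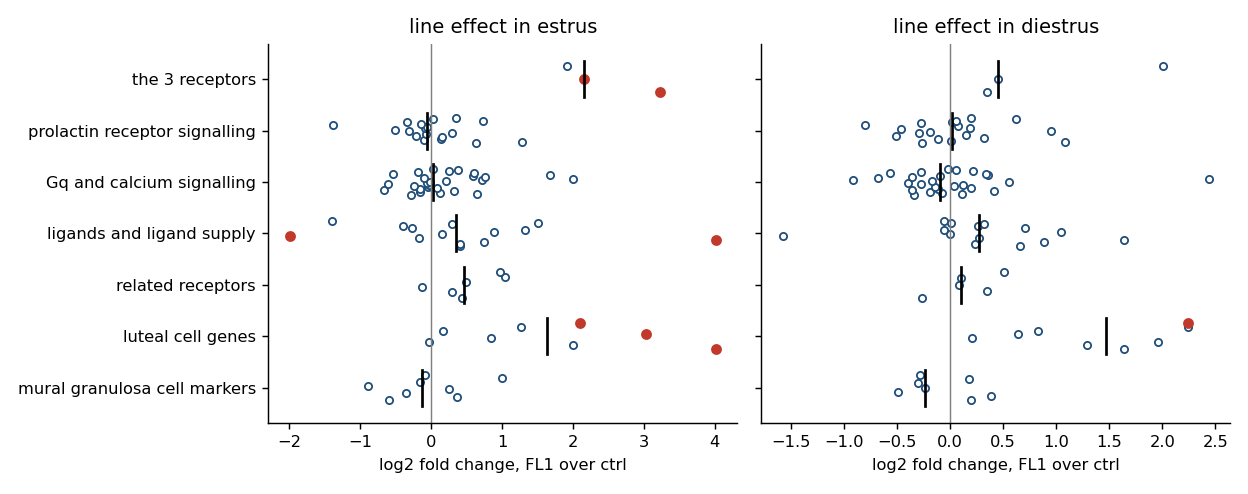
Log2 fold changes of FL1 over ctrl (x axis) in estrus and in diestrus for the 3 receptors and for the genes of 6 lists, 1 point per gene tested, with the median as a black bar and genes in red where the adjusted p was at most 0.05. The luteal cell genes lie to the right with medians of 1.63 and 1.47, and the signalling lists lie around 0.

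Within the groups, the level of 1 receptor was set against that of another over the 20 mice, with log2 CPM taken as the difference from the group mean and with 100000 permutations within groups, two-sided. All 3 pairs were compared. Prlr and Oxtr had a Pearson r of 0.59 (permutation p = 0.0175, adjusted p = 0.0526) and a Spearman rho of 0.51 (permutation p = 0.0353, adjusted p = 0.106). Neither passed after adjustment over the 3 pairs, and without FL1 replicate 2 in estrus and ctrl replicate 4 in diestrus r was 0.37. Prlr and Ptgfr had an r of 0.25 (permutation p = 0.216, adjusted p = 0.324) and a rho of 0.22 (permutation p = 0.347, adjusted p = 0.520), with an r of 0.37 without the same 2 mice. Oxtr and Ptgfr had an r of -0.02 (permutation p = 0.956, adjusted p = 0.956) and a rho of -0.04 (permutation p = 0.879, adjusted p = 0.879), with an r of -0.08 without FL1 replicate 2 and ctrl replicate 3 in estrus.

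**Figure D5:**
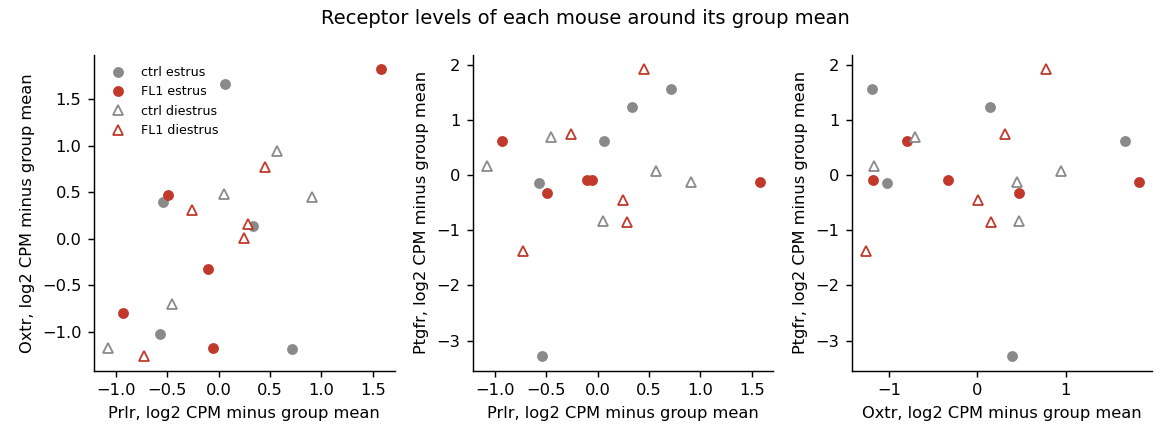
Level of each mouse as log2 CPM minus the mean of its group, for the 3 pairs of receptors (x and y axes), with circles for estrus, triangles for diestrus, grey for ctrl and red for FL1. Prlr and Oxtr have an r of 0.59, with FL1 replicate 2 in estrus at the upper right, and the pairs with Ptgfr have 0.25 and -0.02.

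The genes with the pattern most like each receptor were sought among 14935 others by Pearson's r of log2 CPM over the 20 mice, as a description in which mice of a group and their libraries are shared. For Prlr these were Lhcgr (0.89), Ptp4a2 (0.87), Dpp7 (0.80), Ncoa7 (0.80) and Rora (0.79). For Oxtr they were the mitochondrial electron carrier Fdx1 (0.84), Gas1 (0.84), Ncoa7 (0.83), Smarca1 (0.83) and Adamtsl4 (0.82). Ncoa7, a nuclear receptor coactivator, was thus on both lists. For Ptgfr they were Gnpda2 (0.88), S100a11 (0.87), Chst15 (0.86), Bbs7 (0.85) and the cell cycle inhibitor Cdkn2b (0.84). Without the mouse farthest from the median of each receptor these values were lower, apart from Prlr and Dpp7 (0.83). They fell at most to 0.66 for Prlr and Rora without FL1 replicate 2 in estrus, to 0.72 for Oxtr and Smarca1 without the same mouse, and to 0.69 for Ptgfr and Bbs7 without ctrl replicate 2 in estrus.

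With group means subtracted, most genes in these lists changed. Prlr then went with Dhcr7 (0.83) and Me1 (0.81), enzymes of cholesterol synthesis and of NADPH supply, and with Prss35 (0.81), Pdrg1 (0.80) and Mgarp (0.80). Oxtr went with Gsn (0.83), Tinagl1 (0.80), Mcfd2 (0.76), Gas1 (0.75) and Aebp1 (0.74). Gas1 alone stayed among the first 5 for Oxtr and none for Prlr. Ptgfr went with Mrpl9 (0.92), Gnpda2 (0.86), Chst15 (0.86), Bbs7 (0.85) and mt-Tv (0.83), and r fell to between 0.67 and 0.84 without ctrl replicate 2 in estrus.

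Overlapping genes and near-identical copies were looked for, since their reads can be counted on either gene. Gm21973 overlaps Prlr on the same strand and shares its sequence with the last 500 nt of annotated Prlr transcripts, and had 0 counts in all mice. Reads on bases that both genes share are left out of the deposited counts as ambiguous, a class of 0.54% to 0.74% of all reads per mouse. How many Prlr reads were left out in this way was not measured. Gm43618 overlaps Ptgfr on the other strand and had 0 to 44 counts per mouse. No overlapping gene was found for Oxtr, and no near-identical copy elsewhere for Oxtr or Ptgfr.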

How the data were processed

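Trimmed reads were aligned by the authors with STAR 2.6.0a against GRCm38 (Ensembl release 95), and the authors deposited raw counts per gene for each of 20 GC samples, together with 4 totals of unassigned reads, which were left out here. Reads counted on genes were 48.9% to 58.4% of all reads. The strand setting of the counting is not given in the sources used here. Symbols come from GENCODE M21, by which 55141 of 55487 identifiers were matched.

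Counts were analysed with edgeR 4.0.16 in R 4.3.3: filterByExpr (minimum count 10, total 15, share 0.7), TMM factors, quasi-likelihood F test without robust estimation and Benjamini-Hochberg adjustment over all genes tested, at 0.05. Lines were compared within each stage and stages within each line (10 samples each), and the interaction over all 20. CPM uses TMM factors of all 20 samples, and log2 CPM a prior count of 2. Copies were searched with BLAST 2.17.0 (at least 90% identity over 100 nt). The fits were tested on simulated data.

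Alternatives were RLE size factors, no filter, DESeq2 1.42.0, 1 fit of all samples, robust estimation, a block for the replicate number, and leaving out each sample. The 3 receptors and the gene lists were chosen with earlier results of these data known. Named are the receptors, per list and comparison up to 5 genes called, Ghr, Avpr1a, Ptger2 and Ptgfrn, the 5 genes most alike, and overlapping genes. Jak2, Stat5a, Stat5b, Socs2, Socs3, Cish, Insl3, Ptch1, the markers of GCs and cumulus cells, Prl, Oxt, Avpr1b and Avpr2, and the values of Hpgd in diestrus, were named outside this rule, after their values had been seen.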

Additional observations from a re-analysis of the deposited data

Results flagged for a closer look

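Within each group of 5 mice, the highest or lowest mouse was flagged where its gap to the nearest other mouse took up most of the range of the group (Dixon's test). Of 72 groups tested, for the 3 receptors and the summed level of 15 gene lists, 5 were past the limit, where chance flags about 1 group in 20. Prlr was flagged in FL1 replicate 2 in estrus, with 1639 CPM against 528 CPM in the next mouse. Ptgfr was flagged in FL1 replicate 3 in estrus, with 187 CPM against 114.95 CPM. The summed level of genes of prolactin receptor signalling was flagged in ctrl replicate 4 in diestrus, where it was low, with 1612 CPM against 1924 CPM, and that mouse also had the lowest Prlr level of its group (114.2 CPM). Socs2 alone was a large part of this sum, with a mean of 983 CPM in that group and 682 CPM in its lowest mouse. The summed oocyte markers were flagged in ctrl replicate 4 in estrus, with 492 CPM against 178 CPM. The summed surface epithelium markers were flagged in FL1 replicate 1 in diestrus, with 31.7 CPM against 10.1 CPM, and that mouse also had the highest Ptgfr level of its group (301 CPM) and the highest summed markers of smooth muscle (1206 CPM), endothelium (83.5 CPM), leukocytes (62.4 CPM), erythrocytes (1625 CPM), stroma (838 CPM) and theca cells (174 CPM).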

How the results depend on the processing

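Of 267 refitted values of the 3 receptors, 242 kept their direction and their side of the threshold, 9 lost a call, 5 gained one and 11 changed sign. All sign changes were of Ptgfr values that had not passed. The cause of these changes was not tested. Robust estimation ended the calls of Prlr (2.16) and Oxtr (3.23) in estrus and of Oxtr between the stages of FL1 (-2.53). Without the filter on low counts Ptgfr passed between the lines in estrus (1.93) and diestrus (1.9985) and Oxtr in the interaction (-2.89), and DESeq2 called Ptgfr in diestrus (2.02). Without the filter the share of genes called was 1.55% (373 genes) and 0.439% between the lines in estrus and diestrus, 1.45% and 1.23% between the stages of ctrl and FL1 mice, and 0.0223% (6 genes) in the interaction. With DESeq2 it was 1.76% (425 genes), 0.485%, 2.19%, 1.09% and 0.00372% (1 gene). A single fit of all samples called 0.435% between the stages of FL1 mice. Leaving out 1 mouse gave 0.490% (without FL1 replicate 1) to 0.966% between the lines in estrus and 0.158% (without FL1 replicate 4) to 0.237% in diestrus. Between the stages of ctrl it gave 0.583% (without diestrus replicate 5) to 1.31%, and of FL1 0.0958% (without diestrus replicate 3) to 1.31% (without diestrus replicate 1). The log2 fold changes were then 1.61 to 2.29 for Ptgfr in estrus (called without ctrl replicate 2), -2.76 to -1.79 for Oxtr between the stages of FL1, and for Ptgfr -0.53 to 0.13 between the stages of ctrl, -0.94 to 0.094 between those of FL1 and -0.69 to 0.40 in the interaction. The replicate numbers did not pair the mice: same-numbered mice had correlations of -0.17 to 0.12, with 1 of 30 over 0.1, and 2 of 20 mice correlated best with their own number. With the replicate block 0.446% of genes (58) were called between the lines in estrus and 0.101% (13) in diestrus, and Ptgfr was at 0.12 between the stages of ctrl mice and -0.093 in the interaction, while no call of the receptors changed. Depth limits Oxtr and Ptgfr most, with as few as 23 and 12 reads in a mouse.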
